A study of Mus musculus with 2 samples.

Results

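The core genes of Polycomb repressive complex 1 (PRC1) were compared between RNA of mouse embryonic fibroblasts (MEFs) labelled Lats2 knockout (KO) and RNA labelled wild type (WT). The 9 genes are Ring1 and Rnf2 (also called Ring1b), Bmi1 and Pcgf2, Cbx2, Cbx7 and Cbx8, and Phc1 and Phc2. They were taken by gene name from the 27745 gene names on an Agilent whole mouse genome array, and 17 non-control probes carried one of these names. Both RNAs came from untreated fibroblasts of C57BL/6J mice, one with the genotype LATS2-/- and the other LATS2+/+, and were hybridised together on 2 arrays with the Cy5 and Cy3 dyes exchanged. Lats2 is a serine/threonine kinase of the Hippo pathway. Neither the number of embryos behind each RNA nor separate RNA preparations are named, so the 2 arrays were counted as 1 replicate: their spread is hybridisation and dye error, and no p-value was computed between genotypes as a result.

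PRC1 is a chromatin complex that attaches ubiquitin to histone H2A and compacts the genes it occupies. Every form of it holds a RING1 protein, the ubiquitin ligase, paired with a PCGF protein. In the canonical form the pair joins a chromobox (CBX) protein, which reads the trimethyl mark that Polycomb repressive complex 2 (PRC2) puts on histone H3, and a polyhomeotic (PHC) protein, which polymerises. Variant forms carry Rybp or Yaf2 in place of CBX and PHC. In cultured fibroblasts PRC1 is known for holding down the Ink4a/Arf locus (Cdkn2a), and embryonic fibroblasts without Bmi1 stop dividing early.

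The label of the KO RNA was checked first on the targeted gene, and most Lats2 probes went against it. Lats2 has 4 probes, and 3 of them gave more signal from the KO RNA, with mean log2 ratios of KO over WT of 0.56, 0.56 and 0.63, while the other was at −0.35. The 3 lie close together within chr14:56644080-56645305, and the first 2 overlap, so they are not separate checks of the gene. The other lies at chr14:56676512-56676571. Which exons the deletion removes is not given in the sources used here, and a probe outside the deleted part checks nothing. Each direction below is therefore that of the RNAs as labelled. All 10 fibroblast markers were above background in at least 1 of these RNAs (Vim only in WT), while the endothelial (5), skeletal muscle (4 measured) and pluripotent (4) markers were all not well above background. Vim was read by 1 usable probe of 2, among the dimmest of the array, so its absence from the KO RNA is not shown. Of 6 epithelial markers Krt5 and Krt14 were above background, of 6 haematopoietic markers Cd68 and Csf1r, and of 5 neural markers Tubb3 and Map2. Median spot signals on the arrays were 96.8 and 98.5 for Cy5 against 60.1 and 58.2 for Cy3.

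Across the 9 genes the ratios were small, and the chromobox genes stood lowest. Cbx7 was at 58.6% of its WT level, Cbx8 at 79.9% and Cbx2 at 80.2%, while Rnf2 was at 133.4%. Bmi1, Pcgf2, Ring1, Phc1 and Phc2 lay between 87.7% and 102.1%. The median log2 ratio of the 9 genes was −0.13, against −0.0037 over the 15877 genes of the array that were well above background, and 6 of the 9 were below 0. The sign was the same on both arrays for 7 of the 9, the exceptions being Pcgf2 and Phc1. All 9 genes and 15 of the 17 probes were well above background in both RNAs. In a culture, fewer cells that make a transcript and less of it per cell cannot be told apart.

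Differences were counted by 3 rules, each more lenient than the one before and each asking for the same direction on both arrays. At the 2-fold threshold of the study's methods, applied to each array, 0 of the 9 genes were lower and 0 higher, where 2.61% of all genes above background were lower and 2.95% higher. At 1.4-fold on each array, 1 was lower (Cbx7) and 0 higher, against 9.50% and 9.35% of all genes, and with median centring in place of loess 0 were lower. The third rule asked for a mean log2 ratio beyond 0.194, which is 2 SD of the mean of 2 arrays (SD 0.0968, from the difference between arrays over 22357 probes). It was met by 3 genes in the lower direction (Cbx2, Cbx7 and Cbx8) and 1 in the higher (Rnf2), against 28.3% and 27.2% of all genes. The counts over the 9 genes are therefore near those of the array as a whole.

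**Figure D1:**
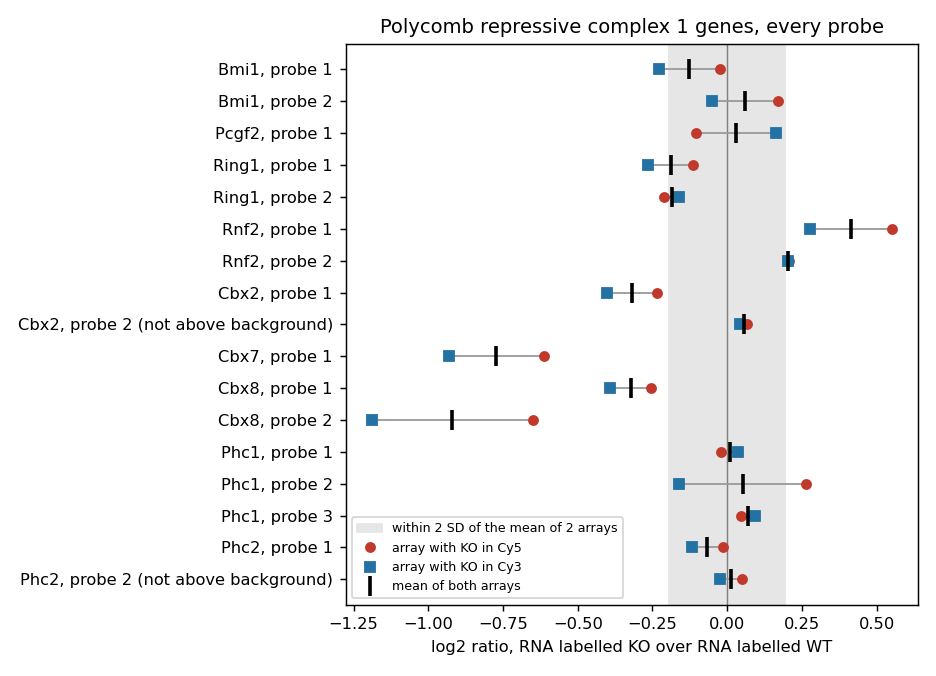
Log2 ratio of the RNA labelled KO over the RNA labelled WT (horizontal axis) for all 17 probes of the 9 PRC1 genes. Circles are the array with KO in Cy5, squares the array with KO in Cy3, bars their mean, and the grey band spans 0.194 on each side of 0; the Cbx7 probe, both Cbx8 probes and the brightest Cbx2 probe lie to the left of the band on both arrays, and both Rnf2 probes to its right.

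Of the RING1 ligases, Rnf2 was higher in the RNA labelled KO, and Ring1 lay near the lower edge of the 2 SD band. Rnf2, the main H2A ubiquitin ligase of the complex in many cell types, had normalised signals of 2652 in the RNA labelled KO and 1807 in the RNA labelled WT on the array with KO in Cy5, and of 2364 and 1949 on the array with KO in Cy3. The KO signal was the higher on both arrays, with log2 ratios of 0.55 and 0.28 and a mean of 0.42, or 1.33-fold. This probe lies at chr1:153232075-153232134 (NCBI36, mm8). The other Rnf2 probe read 350.7 in KO and 303.9 in WT, then 333.0 in KO and 289.3 in WT, a mean log2 ratio of 0.20 that was the same on both arrays to 2 decimals (0.21 and 0.20).

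Ring1, the paralogous ligase on chromosome 17, read 313.8 in KO and 339.9 in WT on the first orientation and 303.6 and 364.5 on the other. Its mean log2 ratio was −0.19, and its other probe also gave −0.19, so both probes lay just inside the 2 SD band. Under 5 of the 7 ways of processing both arrays Ring1 was past the edge of that band, from −0.21 to −0.25. Of these 5, Feature Extraction's ratio and the deposited log2 ratios gave the same value. The band itself comes from the main processing only and was not recomputed for the others. The log2 ratio of Rnf2 exceeded that of Ring1 by 0.67 on one array and 0.54 on the other, a mean of 0.60 ± 0.09 (SD between the 2 arrays, 1 replicate). The SD expected of such a difference from array error alone was 0.137. Within 1 Mb of the Rnf2 probe, 6 of 13 other genes were lower beyond 2 SD and 2 higher, and within 5 Mb 14 of 43 were lower and 13 higher.

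The PCGF genes encode the partners that activate the RING1 ligases and set the type of complex, and both lay inside the band. Bmi1 (Pcgf4) read 1594 in KO and 1619 in WT on the array with KO in Cy5, and 1496 and 1755 on the other. Its log2 ratios were −0.02 and −0.23, with a mean of −0.13. The other Bmi1 probe had a mean of 0.06 (0.17 and −0.05), so the probes of Bmi1 lay on either side of 0 and both inside the 2 SD band. Pcgf2 (Mel18), the closest paralog of Bmi1, was measured by 1 probe among the dimmest of the array, which spans chr11:97507983-97508156. It read 95.7 in KO and 102.8 in WT, then 107.6 and 96.0, and its log2 ratios of −0.10 and 0.16 had opposite signs. The difference between Bmi1 and Pcgf2 changed sign between arrays as well (0.08 and −0.39).

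The chromobox genes were the subunits that were lower. The 3 studied here read the PRC2 mark, and Cbx7 and Cbx8 are known from fibroblasts as repressors of Ink4a/Arf. Cbx7, measured by 1 probe at chr15:79743093-79743152, read 126.8 in KO and 194.0 in WT on the array with KO in Cy5, and 119.9 in KO and 228.6 in WT on the other. Both KO signals lay below both WT signals. The log2 ratios were −0.61 and −0.93 with a mean of −0.77, and 5.34% of all genes above background had a lower ratio. The signals include the offset of 50 added in background correction. Before it the scanner read 138.9 over a background of 33.5 in KO and 120.5 over 27 in WT on the first orientation. On the other it read 65.8 over 31 in KO and 285.1 over 32.5 in WT. Each RNA was read in its own dye. Feature Extraction's own ratio, which adds no offset, was −1.07 and −1.52 with a mean of −1.30, or 40.7% of WT, and met the 2-fold rule. The size of the Cbx7 difference therefore depends on how the background is treated, from 1.71-fold to 2.46-fold, whereas its direction was the same under all 7 ways of processing both arrays.

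Cbx8 read 649.5 in KO and 775.2 in WT on the array with KO in Cy5, and 653.9 and 857.7 on the other, at its brighter probe (chr11:118854553-118854612). The log2 ratios were −0.26 and −0.39, with a mean of −0.32. The other probe, 2124 bases away at chr11:118852429-118852488, read 517.6 in KO and 812.5 in WT, then 479.3 and 1094. Its log2 ratios of −0.65 and −1.19 gave a mean of −0.92, or 52.8% of WT, which met the 1.4-fold rule. Both probes of Cbx8 were lower in KO on both arrays, and they differed by 0.60 in the mean log2 ratio. The part of the transcript that each probe reads was not analysed here.

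Cbx2 read 335.9 in KO and 395.2 in WT on the array with KO in Cy5, and 312.0 and 412.8 on the other. Its log2 ratios of −0.23 and −0.40 (mean −0.32) differed from those of the brighter Cbx8 probe by 0.02 and −0.01. Its other probe was not well above background in either RNA. At the brightest probes the log2 ratio of Cbx7 was 0.45 below those of Cbx2 and Cbx8, whereas the other Cbx8 probe lay below Cbx7 on both arrays.

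**Figure D2:**
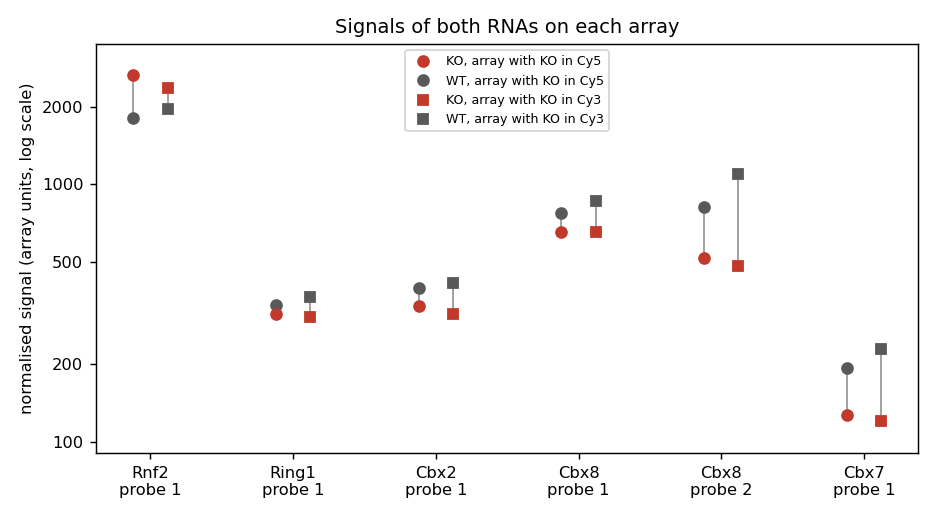
Normalised signal (vertical axis, array units on a log scale, offset of 50 included) of the RNAs labelled KO (red) and WT (grey) for 6 probes, with circles for the array with KO in Cy5 and squares for the array with KO in Cy3. Lines join the RNAs of 1 array: KO lies above WT for Rnf2 and below WT for the other 5 probes, with the longest lines at Cbx7 and the second Cbx8 probe; levels are not comparable between probes.

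Cbx6, a further Polycomb member of the chromobox family, was lower as well. It had log2 ratios of −0.88 and −0.96 with a mean of −0.92, and its 3 probes ranged from −0.92 to −0.66. Cbx2, Cbx6, Cbx7 and Cbx8 were thus lower beyond 2 SD (4 of 4), with 28.3% of all genes as background, and 2 of 4 at 1.4-fold, with 9.50% as background. Their median was −0.55 and their range −0.92 to −0.32. This grouping was made after the values had been seen.

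These 4 genes lie in 2 places, Cbx2 and Cbx8 within 7474 bases of chromosome 11 and Cbx6 and Cbx7 within 89752 bases of chromosome 15 (mm8). The surroundings of the 2 places differed. Within 1 Mb of the Cbx7 probe, 44 other genes above background had a median log2 ratio of −0.20, and 22 of them were lower beyond 2 SD and 5 higher. Within 200 kb of the chromosome 15 pair, 9 of 13 other genes were lower and 0 higher, among them Pdgfb at −0.62 and Nptxr at −1.62. The median of these 13 genes was −0.62. Within 1 Mb of the Cbx8 probe, the 20 other genes counted here had a median of 0.13, and 1 was lower and 8 were higher. Tbc1d16, within 200 kb of the chromosome 11 pair, had a log2 ratio of 0.76.

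The same contrast held for whole chromosomes. On chromosome 15, 42.9% of 643 genes were lower beyond 2 SD and 16.3% higher, with a median of −0.13, the second lowest of the 20 chromosomes after chromosome 4. On chromosome 11, 21.0% of 1294 genes were lower and 28.0% higher, with a median of 0.03. Relative to the median of its chromosome, Cbx7 was at −0.64, Cbx6 at −0.79, Cbx2 at −0.35 and Cbx8 at −0.35, each beyond 2 SD. The 13 other genes within 200 kb of Cbx6 and Cbx7 had a lower median than chromosome 15, −0.62 against −0.13. Ratios relative to that local median were not computed. The part of the surrounding genes in the Cbx6 and Cbx7 ratios was not tested. These windows were also chosen after the values had been seen.

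**Figure D3:**
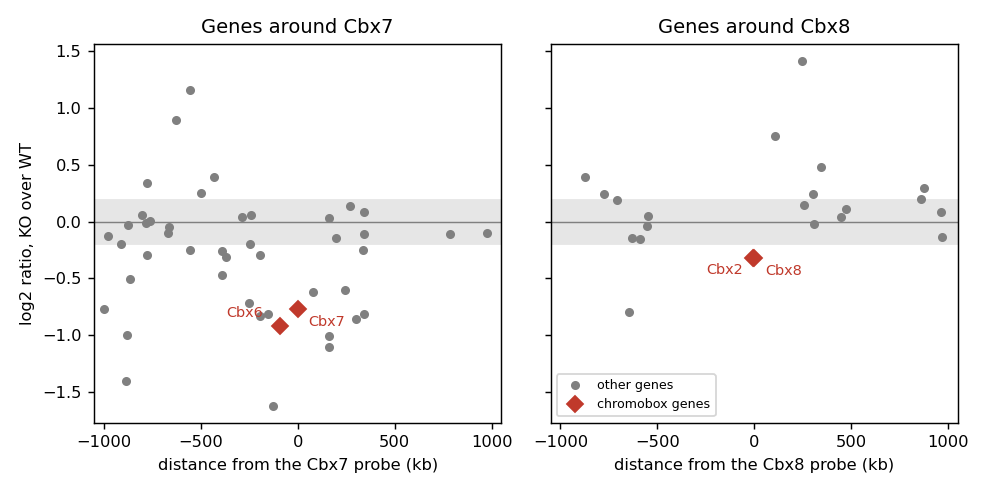
Log2 ratio of KO over WT (vertical axis, mean of both arrays) of the genes counted here within 1 Mb of the Cbx7 probe (left) and the Cbx8 probe (right), by distance in kb, with chromobox genes as red diamonds and a grey band of 0.194 on each side of 0. Of the other genes around Cbx7, 22 of 44 lie below the band, whereas around Cbx8 1 of 20 does.

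The promoters of Cbx7 and Cbx8 are shown because these genes held the lowest probes of the 9 and come from different chromosomes. Each is the RefSeq sequence from 250 bases before to 50 bases after the transcript start (GRCm38.p6, both on the minus strand, written 5′ to 3′), at chr15:79932597-79932896 for Cbx7 and chr11:119040864-119041163 for Cbx8. Capitals mark matches to 4 motifs searched on both strands: the CCAAT box (CCAAT or ATTGG), the E-box (CACGTG), the cAMP response element (TGACGTCA) and the E2F site (TTTCCCGC, TTTGGCGC and their reverse complements).
Cbx7: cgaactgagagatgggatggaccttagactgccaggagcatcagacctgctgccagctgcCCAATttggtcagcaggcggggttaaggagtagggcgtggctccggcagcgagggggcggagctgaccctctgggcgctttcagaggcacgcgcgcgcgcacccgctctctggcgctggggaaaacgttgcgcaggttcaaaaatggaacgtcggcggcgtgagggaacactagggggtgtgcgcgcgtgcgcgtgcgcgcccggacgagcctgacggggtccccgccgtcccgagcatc
Cbx8: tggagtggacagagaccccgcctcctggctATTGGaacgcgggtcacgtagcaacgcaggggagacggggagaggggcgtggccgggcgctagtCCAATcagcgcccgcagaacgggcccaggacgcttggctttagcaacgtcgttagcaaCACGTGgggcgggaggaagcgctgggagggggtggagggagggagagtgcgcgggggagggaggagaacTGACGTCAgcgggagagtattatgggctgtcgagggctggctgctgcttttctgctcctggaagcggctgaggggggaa
The Cbx7 promoter held 1 CCAAT match, and the Cbx8 promoter held CCAAT in either orientation, an E-box and a cAMP response element. Among 32851 RefSeq promoters of the same length, 37.4% held a CCAAT box, 7.15% the E-box, 1.79% the cAMP response element and 1.56% an E2F site. Both were rich in G and C (67.3% for Cbx7 and 66.0% for Cbx8) and in CpG (33 and 24), where the medians over all promoters were 52.7% and 7. Promoters of 8 of the 9 genes were in the reference, and none held these E2F letters. A match is a description of the sequence and no evidence of binding.

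The polyhomeotic genes, whose products join PRC1 complexes through their SAM domain, had mean log2 ratios inside the 2 SD band at every probe. Phc2 read 5026 in KO and 5080 in WT on the array with KO in Cy5, and 5185 and 5627 on the other, a mean log2 ratio of −0.07. Its other probe was not well above background in either RNA. Phc1 read 813.2 in KO and 824.2 in WT, then 857.6 and 836.3, with a mean of 0.01. The other Phc1 probes had means of 0.05 and 0.07, so the means of all 3 lay within 2 SD of 0. The probe at 0.05 gave 0.26 on the array with KO in Cy5 and −0.16 on the other. Phc2 lies on chromosome 4, where 44.9% of 946 genes were lower beyond 2 SD and 12.7% higher, and relative to the median of that chromosome its ratio was 0.09.

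A list named here other canonical PRC1 genes holds 7 genes related to that complex, not all of them its subunits (Sfmbt1 and Sfmbt2 are not). It was written with earlier results of these data known, as were the lists that follow. Of the 7 genes, 5 were above background. Beyond 2 SD, 1 was lower (Cbx6) and 1 higher (Sfmbt2, at 0.53), against 28.3% and 27.2% of all genes. Only 1 of the 3 Sfmbt2 probes was above background, and the 3 ranged from −0.02 to 0.53. Phc3, the remaining polyhomeotic gene, was not well above background. The median of the 5 was −0.08, and 0.06 with the mean over each gene's probes.

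Among genes of the variant complexes, 24 of 25 were measured and above background, with a median of −0.06. Beyond 2 SD, 6 were lower and 5 higher, against 28.3% and 27.2% of all genes. The 2-fold rule was met by 1 gene, Pcgf5, in the lower direction, against 2.61% of all genes. Pcgf5, a PCGF subunit of variant complexes, had log2 ratios of −1.31 and −1.34 and a mean of −1.33, or 39.9% of WT, and its 2 probes gave the same mean to 2 decimals. Pcgf3, its closest paralog, was higher, at 0.58 (0.80 and 0.36), although its lowest probe was at 0.00. Pcgf1 was at −0.39 and Pcgf6 at 0.05. Of the 6 PCGF genes, then, Pcgf5 and Pcgf1 were lower and Pcgf3 higher beyond 2 SD, against 28.3% and 27.2% of all genes. Bmi1, Pcgf2 and Pcgf6 were inside the band.

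The adaptors shared by variant complexes, Rybp and Yaf2, lay inside the band, as did Kdm2b. Rybp was at −0.18, Yaf2 at −0.12 and Kdm2b, the CpG island binding subunit of the Pcgf1 complex, at 0.00. The highest ratios of the list were those of Max at 0.84 and E2f6 at 0.92, DNA binding partners in the Pcgf6 complex. The other E2f6 probe was at −0.72, so the direction of E2f6 depends on the probe.

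Genes that remove the ubiquitin mark of PRC1, or belong to the complexes that do, gave a median of −0.11 over 9 measured above background, with 4 lower and 2 higher beyond 2 SD, against 28.3% and 27.2% of all genes. The sign of that median depended on the array, at −0.25 on the one with KO in Cy3 and 0.03 on the other. Bap1, the catalytic subunit of the Polycomb repressive deubiquitinase, was at 0.03. Its partner Asxl1 was at −0.61, with probes from −0.61 to −0.09, and Usp16, another H2A deubiquitinase, was at 0.65 on the 1 probe of 2 above background.

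PRC2 makes the mark that chromobox proteins read. All 11 of its genes on the list were above background, with a median of −0.31, and 6 were lower and 2 higher beyond 2 SD, against 28.3% and 27.2% of all genes. Ezh2, the methyltransferase, was at −0.47, Suz12 at −0.46 with its other probe at −0.18, inside the band, and Eed, which binds the mark, at −0.31. No PRC2 gene met the 2-fold rule, against 2.61% of all genes lower and 2.95% higher. Phf19, at −0.75, was the 1 gene of 11 that met the 1.4-fold rule in the lower direction, against 9.50% of all genes. Its paralog Phf1 was at 0.39.

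The Ink4a/Arf and Ink4b genes are known targets of PRC1 in fibroblasts. Neither met the 1.4-fold rule, which 9.50% of all genes met in the lower direction and 9.35% in the higher. Cdkn2a had log2 ratios of −0.20 and −0.31 and a mean of −0.25, which was lower beyond 2 SD. Cdkn2b was at 0.13 on both arrays, inside the band. The 1 Cdkn2a probe is not assigned here to the Ink4a or the Arf transcript.

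**Figure D4:**
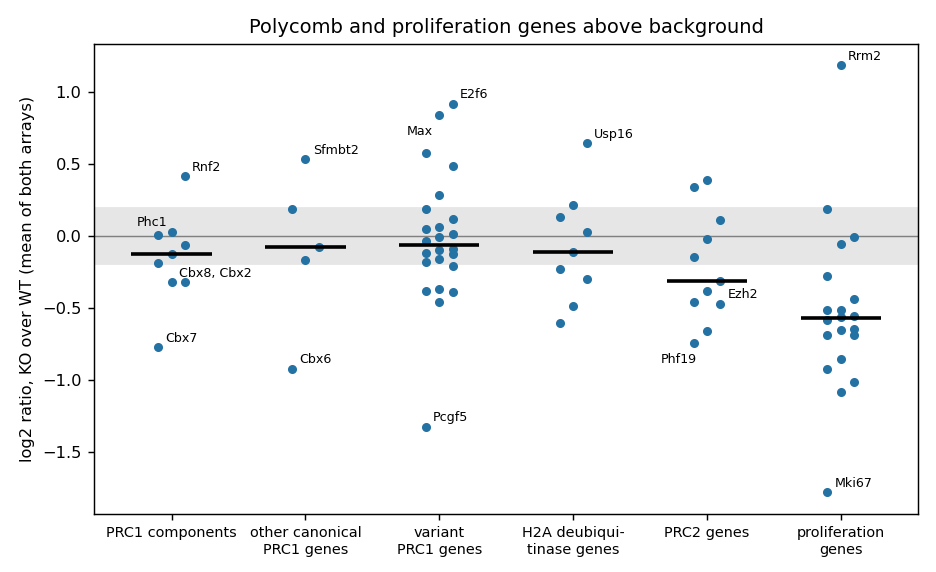
Log2 ratio of KO over WT (vertical axis, mean of both arrays) of the genes above background in 6 lists, each point 1 gene and each black bar the list's median. The grey band spans 0.194 on each side of 0; the medians run from −0.06 for variant PRC1 genes to −0.57 for proliferation genes, and Pcgf5 is the lowest of the Polycomb genes.

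Most proliferation genes were lower beside these ratios. Of 20 genes of the cell cycle and DNA replication, all above background, 16 were lower and 1 higher beyond 2 SD, with a median of −0.57, against 28.3% and 27.2% of all genes in the same directions. By the 2-fold rule, met by 2.61% of all genes in the lower direction and 2.95% in the higher, Mki67 (−1.78) and Plk1 (−1.08) were lower. Rrm2, a subunit of ribonucleotide reductase, was higher (1.19). The part of the proliferation genes in the chromobox and PRC2 ratios was not tested. Of the cell type markers, those of fibroblasts had a summed signal of 123777 in KO and 138424 in WT on one array and of 116174 and 145319 on the other, and 6 of 10 were lower and 1 higher beyond 2 SD. The neural markers summed to 2291 and 2253 in KO and to 3388 and 3308 in WT. Of these 5 markers, Sox2, Neurod1 and Gfap were not well above background. Map2, at −0.95, was lower beyond 2 SD, and Tubb3, at −0.11, was inside the band. Whether these differences in markers have a part in the PRC1 ratios was not tested.

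The choice of processing moved Cbx7 far more than any other of the 9 genes. Over 7 ways of processing both arrays its log2 ratio ran from −1.30 to −0.77, whereas Cbx2 ran from −0.40 to −0.32, Cbx8 from −0.37 to −0.32, Ring1 from −0.25 to −0.19 and Rnf2 from 0.42 to 0.45. Bmi1 and Phc2 were below 0 under all 7, and Pcgf2 and Phc1 above 0 under all 7.

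**Figure D5:**
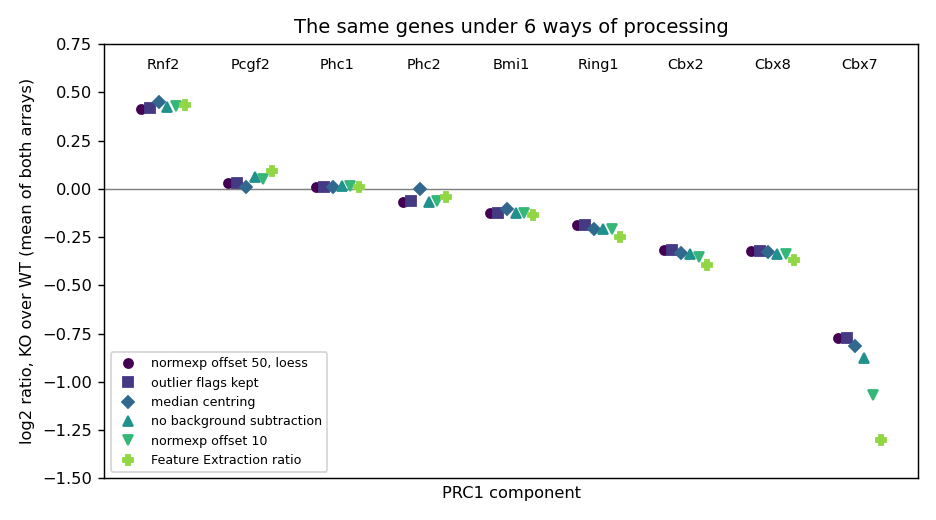
Log2 ratio of KO over WT (vertical axis, mean of both arrays) of the 9 PRC1 genes at their brightest probe under 6 ways of processing, one marker shape each. The markers of 8 genes lie close together, while those of Cbx7 spread from −0.77 with an offset of 50 to −1.30 with Feature Extraction's ratio.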

How the data were processed

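Transcript levels were measured on 2 Agilent 2-colour arrays on the same slide, with KO in Cy5 and WT in Cy3 on the first and the dyes exchanged on the second. The authors deposited the mean signal and median local background of each spot as intensity, read with Agilent Feature Extraction 10.5.1.1, together with its processed signals and its log10 ratio. They also deposited a table of log2 ratios, which equalled log2 of KO over WT of the processed signals on both arrays. Probe coordinates are on NCBI36 (mm8).

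Background correction (normexp, offset 50) was run in limma 3.58.1 under R 4.3.3, and ratios were normalised by loess within each array. Control spots (1639 of 45018) had weight 0, and spots with outlier flags (390 and 378) were left out. Log2 ratios were averaged over the spots of each probe, expressed as KO over WT on either array, and then averaged over the arrays. The brightest of a gene's probes stood for it. Channel signals were taken after loess and Aquantile, with the offset included. Feature Extraction's flag decided what was well above background, and a called gene had to carry it on both arrays in its brighter RNA. The number of arrays limits the precision. Python 3.11.15 with pandas 2.3.3 and numpy 2.4.6 handled the tables.

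Named were all 9 genes with every probe, fixed paralogs and PRC2 core genes, and each list gene that met the 2-fold rule. Genes named for being highest or lowest in a list or near a chromobox gene (Sfmbt2, Max, E2f6, Asxl1, Usp16, Phf19, Phf1, Pdgfb, Nptxr, Tbc1d16) were picked after their values were seen. Some genes of the lists and windows are not reported here and were left out of their counts. The members and lists were chosen with earlier results of these data known. Calls were tested on simulated data with 200 of 41174 probes changed. Of the changed probes in the brighter part, 100% were called, with a median estimate of 0.959 of the true change at a log2 change of 1.5. In the dimmer part 28% were called at that change, with an estimate of 0.576. The alternatives were Feature Extraction's ratio, the deposited table, median centring, an offset of 10, no background subtraction, outlier flags kept, the mean over a gene's probes, either array alone, the methods' t-test and limma over the 2 arrays, and, chosen after seeing the data, ratios relative to the chromosome median.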

Additional observations from a re-analysis of the deposited data

How the results depend on the processing

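No value beyond 2 SD changed sign among the 283 recomputed, of which 249 kept their value within the replicate spread or 1.5 times the count and 34 moved. Of 90 values for the 9 genes, 80 kept theirs and 4 changed sign, all within 2 SD of 0: Pcgf2 and Phc1 on the array with KO in Cy5 alone, and Phc1 and Phc2 relative to the chromosome median. No member was lower by the 2-fold rule, but 1 (Cbx7) passed with the deposited table or Feature Extraction's ratio; 1 was lower at 1.4-fold (0 with median centring, and 1 higher with KO in Cy5 alone), and 3 lower and 1 higher beyond 2 SD. The medians of 2 other lists changed sign: other canonical PRC1 genes were at 0.06 with the mean over probes and 0.05 with KO in Cy5 alone, and the deubiquitinase list at 0.03 with KO in Cy5 alone. The median of the 9 genes, −0.13, was −0.033 with the mean over a gene's probes, where Cbx8 was at −0.62 and Cbx2 at −0.13. On single arrays it ran from −0.23 (KO in Cy3) to −0.10 (KO in Cy5).

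Of all genes above background, 414 were lower and 469 higher by the 2-fold rule, against 138 and 250 with median centring and 866 and 941 with Feature Extraction's ratio or the deposited table. The methods' t-test over the 2 arrays gave 0 of 9 genes at its threshold, with unadjusted p from 0.13 to 0.86 and 0 under 0.05. These and limma compare the RNAs hybridised. By limma 4 of 9 genes had a Benjamini-Hochberg adjusted p under the threshold of 0.05 (8.2e-09 for Cbx7, 0.00038 for Rnf2, 0.0045 for Cbx8 and 0.0052 for Cbx2), against 25.5% of all genes lower and 24.0% higher by that test, and 0 of them had a 2-fold mean. No paired analysis was possible because each dye orientation held 1 array, beyond the pairing of KO with WT on each array that every ratio already holds. With 1 replicate, no difference between genotypes has a replicate check, and dim probes such as those of Cbx7 and Pcgf2 carry the least certain sizes.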
